A study of Homo sapiens with 6 samples.

Results

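The transcripts of 10 genes of the protein phosphatase 1 (PP1) and protein kinase A (PKA) system were measured by RNAseq in A673/TR/shEF cells, with the 10 taken by symbol from 26364 gene symbols listed. They were the PP1 inhibitors PPP1R1A and PPP1R1B, the PP1 catalytic subunits PPP1CA, PPP1CB and PPP1CC, the PKA catalytic subunits PRKACA and PRKACB, and the PKA regulatory subunits PRKAR1A, PRKAR2A and PRKAR2B. PPP1R1A was selected on its FPKM values in this same comparison, where it was lower in the doxycycline libraries, and the other genes were added for their roles around it with the result known, so their differences between the groups are given as a description and carry no test. A673 is an established Ewing sarcoma cell line, a tumor of bone and soft tissue driven by the EWSR1::FLI1 fusion. The A673/TR/shEF derivative carries a tetracycline repressor and an shRNA against the fusion transcript that doxycycline switches on. All 6 libraries came from this engineered line, grown with blasticidin and zeocin. In 3 libraries, called EWSR1::FLI1 high, the cells were untreated, and in 3 libraries, called EWSR1::FLI1 low, they received 1 µg/mL doxycycline for 72 h. The labels number the libraries of each group as experiments, whereas the design text speaks of independent clones, so p-values measure the spread between these libraries, which may be technical. Cells given doxycycline without the shRNA were not analysed here, so an effect of the drug and an effect of the knockdown cannot be told apart.

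PP1 is a serine/threonine phosphatase whose catalytic subunit is steered by a large family of regulatory proteins. PPP1R1A encodes inhibitor-1, which blocks PP1 after PKA has phosphorylated it, and PPP1R1B encodes the related inhibitor DARPP-32, best known from neurons that respond to dopamine. PKA is held inactive by its regulatory subunits until cyclic AMP (cAMP) binds them and releases the catalytic subunits, so the inhibitors link cAMP to phosphatase activity. In Ewing sarcoma, PPP1R1A is known as a gene that EWSR1::FLI1 keeps on. ETS family proteins such as FLI1 recognize the core GGAA, and CREB, a transcription factor that PKA phosphorylates, recognizes the cAMP response element.

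Promoter sequences from RefSeq on the build GRCh38.p14 were matched by symbol for 7 of the 10 genes. The stretches before the most upstream start of PPP1CB and PPP1CC are shown because these catalytic subunits were both abundant and differed in whether their groups overlapped. The PPP1CB stretch is chr2:28751354-28751603 on the plus strand and the PPP1CC stretch is chr12:110742942-110743141 on the minus strand, without the 50 bases nearest the start. Each is written 5′ to 3′, with GGAA and its reverse complement TTCC in capitals.
PPP1CB: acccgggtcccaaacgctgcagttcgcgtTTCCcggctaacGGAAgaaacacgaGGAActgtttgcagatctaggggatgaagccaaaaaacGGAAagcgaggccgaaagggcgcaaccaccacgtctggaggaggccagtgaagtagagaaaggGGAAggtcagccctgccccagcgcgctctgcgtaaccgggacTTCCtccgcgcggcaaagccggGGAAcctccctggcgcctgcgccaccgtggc
PPP1CC: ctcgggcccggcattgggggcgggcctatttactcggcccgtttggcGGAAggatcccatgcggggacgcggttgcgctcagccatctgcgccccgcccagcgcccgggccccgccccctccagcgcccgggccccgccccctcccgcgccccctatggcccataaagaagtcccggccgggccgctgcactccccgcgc
The PPP1CB stretch held 7 GGAA cores on either strand, of which the one nearest the start began at position -31. The PPP1CC stretch held 1. Over the whole 250 bases before the start, the count was 3 in PRKAR2A, 2 in PRKACB and 1 each in PPP1CC, PRKACA, PRKAR1A and PRKAR2B. Of 35116 promoter windows of the same length, 92.7% held at least 1 such core, the median was 3, and 18.6% held 5 or more. The short element TGACG, on either strand, was found once each in PRKACA and PRKACB and in 21.2% of all windows, and the full element TGACGTCA, which contains it, was found in none of the 7 and in 1.65% of all windows. These matches describe letters in the windows only.

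Levels are given in FPKM, that is fragments relative to transcript length and a scaling factor of each library, so that genes can be compared. The median ratio of a library to the geometric mean of each gene was 1.02 in every library. The deposited values had thus already been scaled by such ratios, which does not make the summed FPKM of libraries equal. Reads assigned to genes, recovered from the deposited values, ranged from 6980361 to 16658933 per library. The deepest was replicate 3 of EWSR1::FLI1 low. Replicate 1 of EWSR1::FLI1 low had the fewest reads and stood apart in its FPKM values, which summed to 255956 against 334614 to 366060 elsewhere, and it listed the most symbols above 0 (23458). Replicates differed by more than sampling noise in both groups, with a chi-square per degree of freedom of 4.25 to 6.27 between EWSR1::FLI1 high libraries and 20.2 to 31.5 between EWSR1::FLI1 low libraries. All 6 Ewing sarcoma markers examined passed the filter on low values, and their summed level was 755 to 792 FPKM in EWSR1::FLI1 high and 213 to 280.0 FPKM in EWSR1::FLI1 low libraries. NKX2-2, NR0B1, PRKCB, STEAP1 and CCND1 fell (adjusted p between 0.00024 and 0.00258, limma), with means 3.22 to 8.16 times higher in EWSR1::FLI1 high, whereas CD99 was not called (133 ± 13.2 and 91.8 ± 11.6 FPKM, SD, n = 3 each, adjusted p = 0.067). The 5 markers of leukocytes (PTPRC, CD3E), endothelium (PECAM1), epithelium (EPCAM) and liver (ALB) were each at most 1.56 FPKM, 2 of them passed the filter, and they summed to 1.36 to 2.07 FPKM in EWSR1::FLI1 high and 2.01 to 2.95 FPKM in EWSR1::FLI1 low libraries. Their part in the results was not tested.

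The fusion was followed through FLI1, whose sequence forms the 3′ part of the fusion transcript. Values are given in the order of replicates 1 to 3. In untreated cells, FLI1 was 11.3, 12.7 and 14.2 FPKM, and with doxycycline it was 2.91, 4.29 and 3.68 FPKM. It fell by 1.57 on the log2(FPKM + 1) scale (SE 0.18, adjusted p = 0.000676, limma), with no overlap between the groups. EWSR1, of which the fusion holds the 5′ part and which the cells also express from the normal allele, was 91.5 ± 13.9 and 65.1 ± 16.0 FPKM (SD, n = 3 each; log2 difference -0.50, adjusted p = 0.159). Throughout, differences are EWSR1::FLI1 low minus high, after log2(FPKM + 1) transformation, so changes of scarce transcripts come out too small.

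PPP1R1A (inhibitor-1; chr12:54969171-54982443, minus strand, GRCh37) was well expressed in EWSR1::FLI1 high cells, at 36.9, 30.9 and 56.1 FPKM. In EWSR1::FLI1 low cells it was 2.64, 1.06 and 1.26 FPKM. The groups were far apart, and the lowest of the untreated libraries was above the highest of the treated ones. These values rested on 710, 452 and 797 reads against 43, 16 and 36 reads. A floor of 3 reads corresponded to 0.105 to 0.211 FPKM, so the transcript was above this floor in every treated library. The floor does not separate expression from background reads, since the leukocyte marker PTPRC had 44, 17 and 30 reads in the same libraries. Relative to transcript length, PTPRC was 0.667, 0.280 and 0.260 FPKM there, below PPP1R1A in each. The group means were 41.3 ± 13.2 and 1.65 ± 0.857 FPKM (SD, n = 3 each), a ratio of 25.0, and the log2 difference was -4.0 with an SE of 0.28. Among the 15504 genes tested, the transcript stood at percentiles 85.3, 82.2 and 89.7 in EWSR1::FLI1 high libraries and at 35.2, 20.1 and 22.8 in EWSR1::FLI1 low libraries. In bulk samples, fewer cells of a type and less RNA per cell cannot be told apart.

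Replicate 1 of EWSR1::FLI1 low, which stood apart in its summed FPKM, had the lowest FLI1 of its group and the highest PPP1R1A. A high value in this library was not particular to PPP1R1A. PTPRC, CD3E and ALB were also highest there among the treated libraries (0.667, 0.669 and 0.350 FPKM), whereas PECAM1 and EPCAM were not. The reason was not tested. PPP1R1A per FLI1, a ratio of their FPKM values, was 3.26, 2.44 and 3.96 in EWSR1::FLI1 high and 0.907, 0.248 and 0.342 in EWSR1::FLI1 low. The ratio was thus lower in all 3 treated libraries. PPP1R1A was chosen for its fall in these libraries, so its larger difference than that of FLI1 is a description only. FLI1 was counted as a gene and not as the fusion transcript. Without replicate 1 of EWSR1::FLI1 low, the log2 difference of PPP1R1A was -4.25. By annotation, 443 of the 3984 exon bases of PPP1R1A lie opposite exons of PDE1B, a cAMP and cGMP phosphodiesterase, on the other strand, and whether reads were counted by strand is not given in the sources used here. PDE1B itself was 0.863 ± 0.0591 and 0.411 ± 0.191 FPKM (SD, n = 3 each). The annotation also lists the pseudogene copies PPP1R1AP1 and PPP1R1AP2.

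PPP1R1B (DARPP-32; chr17:37782993-37792879, plus strand, GRCh37) was scarce in comparison, at 2.65, 1.41 and 2.96 FPKM in untreated cells and 1.21, 0.119 and 0.469 FPKM with doxycycline. The groups did not overlap, although replicate 2 of EWSR1::FLI1 high and replicate 1 of EWSR1::FLI1 low were close. The treated libraries held 22, 2 and 15 reads of this gene, so that replicate 2 was below the floor of 3 reads. The means were 2.34 ± 0.820 and 0.598 ± 0.554 FPKM (SD, n = 3 each), and the log2 difference was -1.09 with an SE of 0.28. At these low levels the value depended on the scale, and it was -2.09 with a pseudocount of 0.1 and -2.31 with voom on recovered reads. PPP1R1A exceeded PPP1R1B in every library, 13.9-fold, 22-fold and 19.0-fold in EWSR1::FLI1 high and 2.19-fold, 8.96-fold and 2.69-fold in EWSR1::FLI1 low.

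**Figure D1:**
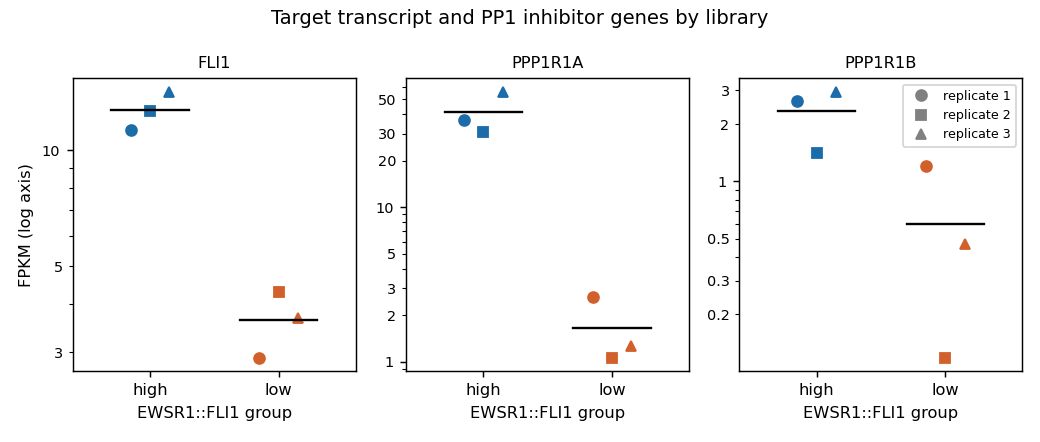
FLI1, PPP1R1A and PPP1R1B in FPKM on a log axis, with a point for each library, marker shapes for replicate numbers and a black line at the mean of each group of 3. PPP1R1A lies between 30.9 and 56.1 FPKM in EWSR1::FLI1 high and between 1.06 and 2.64 FPKM in EWSR1::FLI1 low, and the groups of each gene do not overlap.

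The catalytic subunits of PP1 differed in their pattern. PPP1CC (PP1 gamma; chr12:111157485-111180744, minus strand) was the most abundant of the 10 genes in EWSR1::FLI1 high, at 109.5, 108.6 and 120.9 FPKM, and was 53.5, 58.7 and 78.7 FPKM in EWSR1::FLI1 low. Every treated library was below every untreated one. The means were 113 ± 6.86 and 63.6 ± 13.3 FPKM (SD, n = 3 each), with a log2 difference of -0.84 and an SE of 0.19.

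PPP1CB (PP1 beta, the isoform of the myosin phosphatase; chr2:28974506-29025806, plus strand) was 94.0, 97.5 and 85.0 FPKM in EWSR1::FLI1 high and 83.5, 100.8 and 112.1 FPKM in EWSR1::FLI1 low. Its groups overlapped, and the log2 difference of 0.09 (SE 0.18) was within the spread between libraries. PPP1CA (PP1 alpha; chr11:67165652-67188654, minus strand) was 42.4, 44.3 and 54.8 FPKM against 32.9, 41.1 and 53.2 FPKM. Its groups overlapped as well, with a log2 difference of -0.17 and an SE of 0.22. In GENCODE, exons of RAD9A, TBC1D10C and CARNS1 overlap those of PPP1CA on the opposite strand. There, 796 of the 7394 exon bases of PPP1CB are shared with SPDYA on the same strand. The annotation used in counting is not given in the sources used here, so whether part of their reads was assigned to a neighbor cannot be told.

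The summed FPKM of the PP1 catalytic subunits was 252 ± 7.59 in EWSR1::FLI1 high and 205 ± 37.2 in EWSR1::FLI1 low (SD, n = 3 each). PPP1CC made up 44.5%, 43.4% and 46.4% of this sum in the untreated libraries and 31.5%, 29.3% and 32.3% in the treated ones. PPP1CB made up 38.2%, 38.9% and 32.6% and then 49.1%, 50.3% and 46.0%. The leading catalytic transcript was therefore PPP1CC in each untreated library and PPP1CB in each treated library, including the one that stood apart. The share of PPP1CA ranged from 17.2% to 21.8% and overlapped between the groups. Set against this sum, PPP1R1A was 0.150, 0.123 and 0.215 of the catalytic transcripts in EWSR1::FLI1 high and 0.0155, 0.0053 and 0.00516 in EWSR1::FLI1 low. Transcript ratios do not give the ratio of the proteins, which were not measured here.

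PKA catalytic transcripts overlapped between the groups. PRKACB (C beta; chr1:84543745-84704181, plus strand) was 14.3, 15 and 15.8 FPKM in EWSR1::FLI1 high and 13.2, 17.9 and 24.2 FPKM in EWSR1::FLI1 low (log2 difference 0.24, SE 0.23). PRKACA (C alpha; chr19:14202500-14228896, minus strand) was 2.94, 1.77 and 2.42 FPKM against 3.04, 2.22 and 3.24 FPKM (log2 difference 0.19, SE 0.19). PRKACB therefore supplied most catalytic transcripts, with 86.4% ± 3.28 of their sum in EWSR1::FLI1 high and 86.2% ± 4.24 in EWSR1::FLI1 low (SD, n = 3 each).

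Among the regulatory subunits, PRKAR1A (type I alpha; chr17:66507921-66547460, plus strand) was 79.8, 86.5 and 87.5 FPKM in EWSR1::FLI1 high and 115, 133 and 135 FPKM in EWSR1::FLI1 low. All 3 treated libraries were above all 3 untreated ones. The means were 84.6 ± 4.18 and 128 ± 10.7 FPKM (SD, n = 3 each), and the log2 difference was 0.59 with an SE of 0.16. The annotation lists a pseudogene copy, PRKAR1AP1, and 546 of 12585 exon bases of PRKAR1A are shared with another annotated gene.

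The type II subunits, which bind most A-kinase anchoring proteins, had overlapping ranges. PRKAR2A (type II alpha; chr3:48782030-48885307, minus strand) was 14.4, 16.0 and 16.9 FPKM against 9.87, 17.0 and 15.8 FPKM (log2 difference -0.17, SE 0.22). PRKAR2B (type II beta; chr7:106685150-106802256, plus strand) was 7.16, 7.27 and 7.30 FPKM against 5.59, 7.19 and 8.48 FPKM (log2 difference -0.04, SE 0.18). The SD of its untreated libraries was 0.0741 FPKM, and its treated libraries spread to both sides of them.

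With PRKAR1B included, PKA regulatory transcripts summed to 112 ± 6.41 FPKM in EWSR1::FLI1 high and 154 ± 17.0 FPKM in EWSR1::FLI1 low (SD, n = 3 each). PRKAR1A made up 76.2%, 75.8% and 74.8% of this sum and then 85.8%, 81.7% and 81.5%. The share of PRKAR2A was lower in the treated libraries, at 13.8%, 14% and 14.4% and then 7.34%, 10.4% and 9.56%. PRKAR1A was thus a larger part of the pool in each treated library. The ratio of regulatory to catalytic PKA transcripts was 6.08, 6.79 and 6.42 in EWSR1::FLI1 high and 8.29, 8.09 and 6.0 in EWSR1::FLI1 low, and these ranges overlapped.

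**Figure D2:**
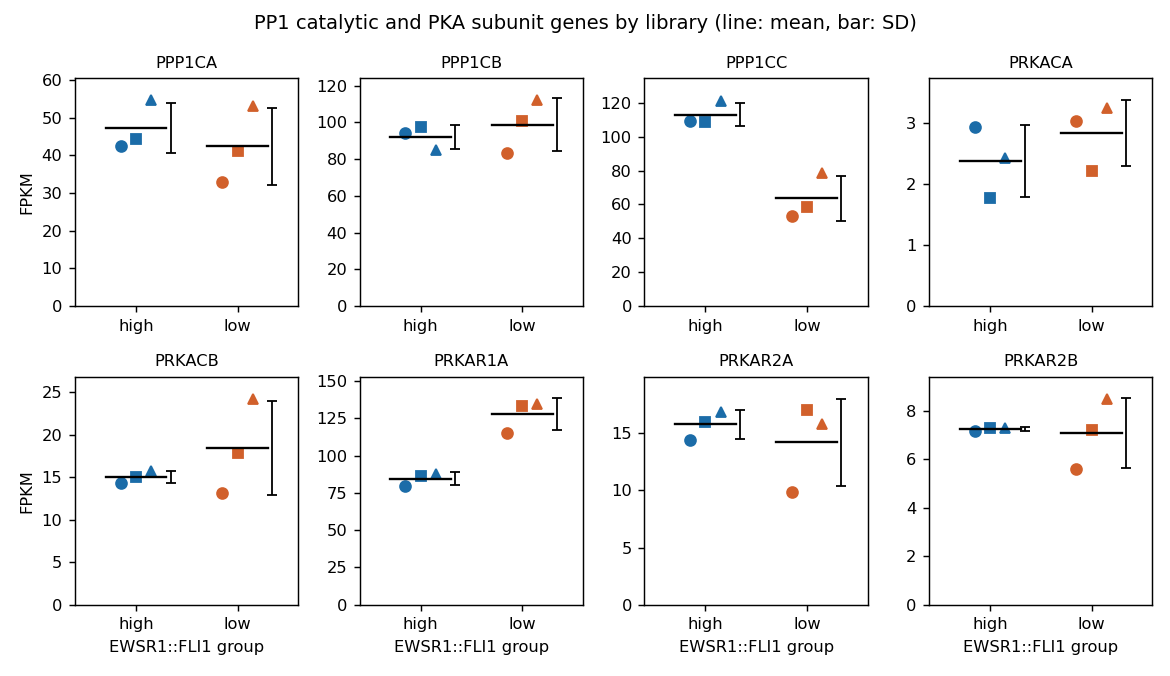
FPKM of the PP1 catalytic and PKA subunits in each library, with a line at the mean and a bar of 1 SD for each group of 3. PPP1CC is lower and PRKAR1A higher in all 3 EWSR1::FLI1 low libraries, and the groups of the other subunits overlap.

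**Figure D3:**
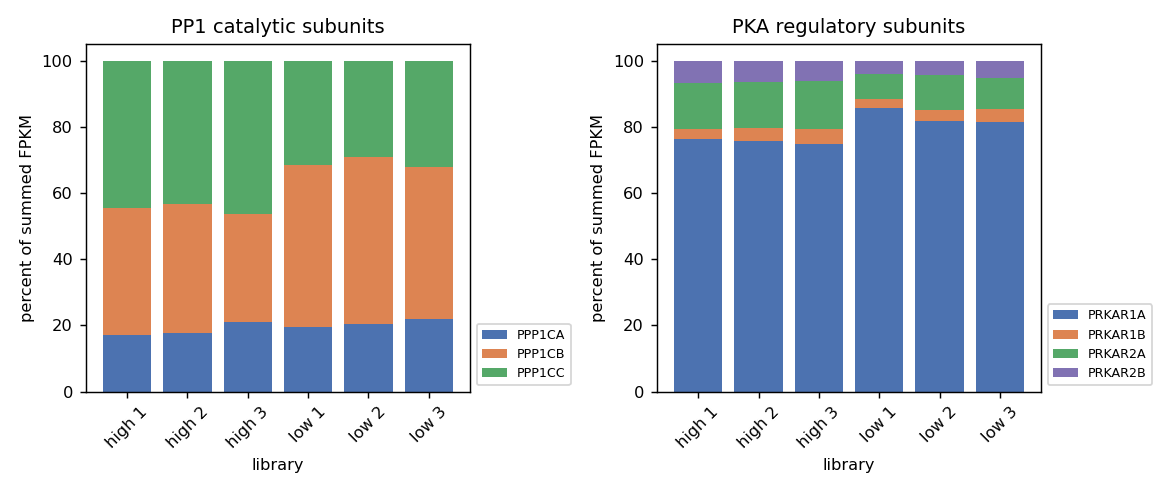
Share of each subunit in the summed FPKM of its family, in percent, as stacked bars for each of the 6 libraries. PPP1CC lies between 43.4% and 46.4% of PP1 catalytic transcripts in EWSR1::FLI1 high and between 29.3% and 32.3% in EWSR1::FLI1 low, and PRKAR1A lies between 74.8% and 76.2% of PKA regulatory transcripts in EWSR1::FLI1 high and between 81.5% and 85.8% in EWSR1::FLI1 low.

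The order of the mean levels also differed. In EWSR1::FLI1 high it ran PPP1CC, PPP1CB, PRKAR1A, PPP1CA, PPP1R1A, PRKAR2A, PRKACB, PRKAR2B, PRKACA and PPP1R1B. The libraries of PPP1CB and PRKAR1A overlapped, as did those of PPP1CA and PPP1R1A, of PRKAR2A and PRKACB, and of PRKACA and PPP1R1B. In EWSR1::FLI1 low it ran PRKAR1A, PPP1CB, PPP1CC, PPP1CA, PRKACB, PRKAR2A, PRKAR2B, PRKACA, PPP1R1A and PPP1R1B, where PRKACB and PRKAR2A overlapped and so did the neighbors among the last 3. PPP1R1A moved from position 5, beside PPP1CA, to position 9, and PRKAR1A from position 3 to 1.

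All 10 genes passed the filter on low values. Of the 15504 genes tested, 3.37% were called lower and 4.51% higher in EWSR1::FLI1 low at an adjusted p under 0.01. Of the 10 genes, 1 was called lower (PPP1R1A) and 0 higher. These counts became 3 lower and 1 higher without replicate 1 of EWSR1::FLI1 low, with PPP1R1B, PPP1CC and PRKAR1A added, when 807 and 1527 of 14907 genes were called. With quantile normalization PPP1CC and PRKAR1A were added, with the replicate number as a block PPP1R1B, and without replicate 3 of EWSR1::FLI1 low PPP1CC. Groups did not overlap, with the treated libraries below, in 23.6% of all genes tested and in 3 of the 10 (PPP1R1A, PPP1R1B and PPP1CC), and with the treated libraries above, in 17.5% of all and in 1 of the 10 (PRKAR1A). Since the rule drew on this comparison, nothing is read from these counts. The median log2 difference was -0.11 over the 10 and -0.05 over all genes tested. Without replicate 1 of EWSR1::FLI1 low, the log2 differences were -1.35 for PPP1R1B, -0.72 for PPP1CC and 0.66 for PRKAR1A. PRKAR2A and PRKAR2B, both close to 0, then turned from negative to 0.05 and 0.10.

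**Figure D4:**
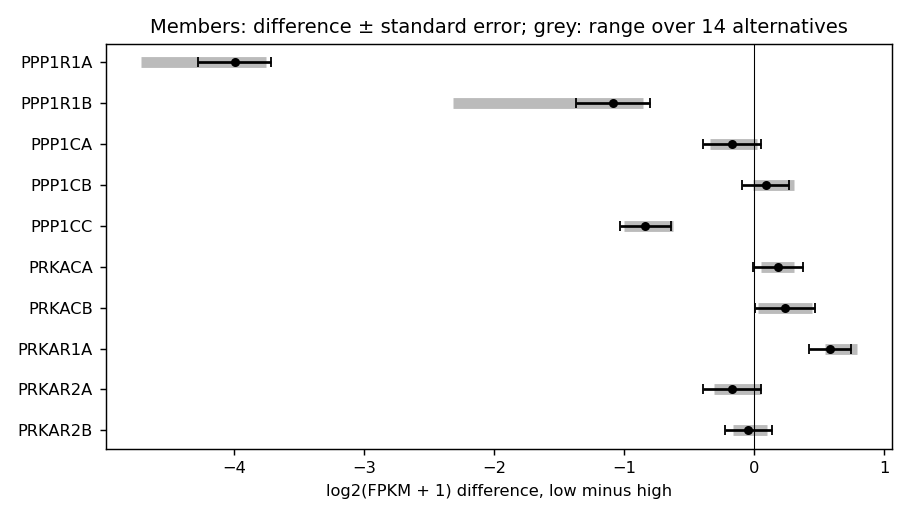
Log2 differences of the 10 genes, EWSR1::FLI1 low minus high, as points with bars of 1 SE and grey lines over the 14 alternative settings, some of which use another scale. PPP1R1A stands at -4.0, and the other 9 genes lie between -1.09 and 0.59.

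The genes whose profile over the 6 libraries was most like that of PPP1R1A were FEZF1, CLUL1, FEZF1-AS1, APELA and CCK, among 12577 genes with a mean of at least 1 FPKM. The measure was the Euclidean distance between log2(FPKM + 1) values centered on each gene's mean, which was 0.64, 0.66, 0.72, 0.82 and 0.96 for these 5. It takes in the difference between the groups, for which PPP1R1A was chosen, so near genes are mainly those that fell by a similar amount. The log2 differences of these 5 ran from -3.78 to -3.30, and the likeness is a description only. FEZF1, a zinc finger transcription factor, was 32.0 ± 3.57 and 1.68 ± 0.655 FPKM in the respective groups, and CCK, the neuropeptide cholecystokinin, was 11.6 ± 3.16 and 0.285 ± 0.365 FPKM (SD, n = 3 each). CCK was listed at 0 in replicate 2 of EWSR1::FLI1 low, the library in which PPP1R1A was also lowest. Of the other genes of the set, PPP1R1B was nearest, at rank 402 and a distance of 3.59, followed by PPP1CC at rank 1023.

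Around these genes, 7 lists of 120 further PP1, PKA and cAMP genes were examined, of which 97 passed the filter and were tested with limma. In EWSR1::FLI1 low, 6 rose and 4 fell at an adjusted p under 0.01, that is 6.19% and 4.12% of those tested, and 87 were not called. Over all 15504 genes tested the shares were 4.51% and 3.37%, and the counts of each list below are to be held against these shares. The lists were chosen with earlier results known, so nothing is read from these counts. The median log2 difference over the 97 was -0.05, as over all genes.

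Of the 32 PP1 regulatory subunits tested out of 41, only PPP1R3B was called. PPP1R3B directs PP1 to glycogen and rose from 4.33, 3.73 and 4.45 FPKM to 10.5, 8.07 and 11.1 FPKM (log2 difference 1.07, SE 0.18, adjusted p = 0.00414, limma). The third member of the inhibitor-1 family, PPP1R1C, had a value opposite in sign to PPP1R1A and PPP1R1B, at 1.65 ± 0.183 and 3.06 ± 0.638 FPKM (SD, n = 3 each), but did not pass the limit (log2 difference 0.60, adjusted p = 0.0403, limma). The list's median log2 difference was -0.04.

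Of the other PKA subunits and PKA inhibitors, 5 of 6 were tested and 1 was called, PKIG, which encodes an inhibitor peptide of the PKA catalytic subunit. PKIG was 36.0, 32.4 and 33.3 FPKM in EWSR1::FLI1 high and 59.2, 64.8 and 73.8 FPKM in EWSR1::FLI1 low, so it rose by 0.93 on the log2 scale (SE 0.18, adjusted p = 0.0074, limma). The related inhibitors PKIA and PKIB were 7.99 ± 0.680 and 11.6 ± 3.24 FPKM in EWSR1::FLI1 high and 9.80 ± 2.95 and 11.9 ± 3.05 FPKM in EWSR1::FLI1 low (SD, n = 3 each; adjusted p = 0.531 and 0.943, limma). PRKAR1B, a type I regulatory subunit, was 4.32 ± 0.981 and 5.15 ± 1.29 FPKM (adjusted p = 0.556), and PRKX, a kinase related to the PKA catalytic subunits, was 7.55 ± 0.972 and 4.93 ± 0.432 FPKM (adjusted p = 0.0564). PRKACG, another catalytic subunit gene, did not pass the filter. The list's median log2 difference was 0.20.

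A-kinase anchoring proteins hold PKA at defined places in the cell. Of 17 genes, 15 were tested, and 3 fell while 0 rose (median log2 difference -0.16). These were 20% and 0% of those tested, against 3.37% and 4.51% of all genes tested. At an unadjusted p under 0.05, 5 were lower and 2 higher. The share of all genes at this unadjusted limit was not computed, so nothing is read from these counts. On the log2(FPKM + 1) scale AKAP7 had the largest difference in the 7 lists, from 48.9, 44.3 and 37.1 FPKM to 11.7, 6.52 and 7.55 FPKM (log2 difference -2.24, SE 0.23, adjusted p = 0.000415, limma). SPHKAP, which binds type I regulatory subunits, fell from 6.38, 5.08 and 5.60 FPKM to 2.28, 0.970 and 0.687 FPKM (log2 difference -1.59, SE 0.25, adjusted p = 0.00303). AKAP1, which anchors PKA to mitochondria, fell from 11.9 ± 1.71 to 5.71 ± 0.925 FPKM (SD, n = 3 each; log2 difference -0.95, SE 0.19, adjusted p = 0.00895, limma). None of the 3 had overlapping groups.

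Of the genes of cAMP synthesis, 5 of 12 were tested and ADCY6, an adenylyl cyclase, was the only one called. It rose from 1.73, 1.85 and 1.65 FPKM to 3.78, 4.02 and 3.41 FPKM (log2 difference 0.78, SE 0.15, adjusted p = 0.00793, limma). GNAS, which encodes the stimulatory G protein subunit and was the most abundant gene of this list, was 37.5 ± 3.39 and 45.9 ± 2.06 FPKM (SD, n = 3 each; adjusted p = 0.276, limma).

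The phosphodiesterases, which break cAMP down, were called in both directions. Of 12 tested out of 16, 2 rose and 1 fell (median log2 difference 0.08). These were 16.7% and 8.33% of those tested, against 4.51% and 3.37% of all genes tested. PDE4B rose from 6.73, 6.45 and 7.12 FPKM to 20.1, 39.3 and 25.6 FPKM (log2 difference 1.86, SE 0.24, adjusted p = 0.00123, limma). PDE4D rose from 1.39, 2.03 and 1.86 FPKM to 7.14, 12.2 and 5.97 FPKM (log2 difference 1.73, SE 0.24, adjusted p = 0.0019). Both belong to the cAMP-specific PDE4 family, and another member, PDE4A, had a value of the opposite sign, at 1.63 ± 0.466 and 0.70 ± 0.174 FPKM (SD, n = 3 each; adjusted p = 0.0473, limma). PDE4A is named here after its values were seen. PDE3B, a phosphodiesterase that cGMP inhibits, fell from 6.99, 6.92 and 8.37 FPKM to 3.23, 2.12 and 2.74 FPKM (log2 difference -1.20, SE 0.18, adjusted p = 0.0024, limma).

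Of the calcineurin and PP2A subunits, which dephosphorylate inhibitor-1 and DARPP-32, 9 of 9 were tested and limma called 0. At an unadjusted p under 0.05 the count was 0 higher and 1 lower (PPP3CA, a calcineurin catalytic subunit, log2 difference -0.70, adjusted p = 0.0237). The share of all genes at this limit was not computed. Of 19 CREB factors and genes that cAMP is known to induce, all tested, only BDNF, a neurotrophin, was called (median log2 difference -0.10). BDNF rose from 1.10, 1.07 and 1.07 FPKM to 3.46, 5.62 and 5.18 FPKM (log2 difference 1.45, SE 0.19, adjusted p = 0.00112, limma). CREB1 itself was 14.8 ± 0.953 and 14.4 ± 1.13 FPKM (SD, n = 3 each; adjusted p = 0.899, limma).

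**Figure D5:**
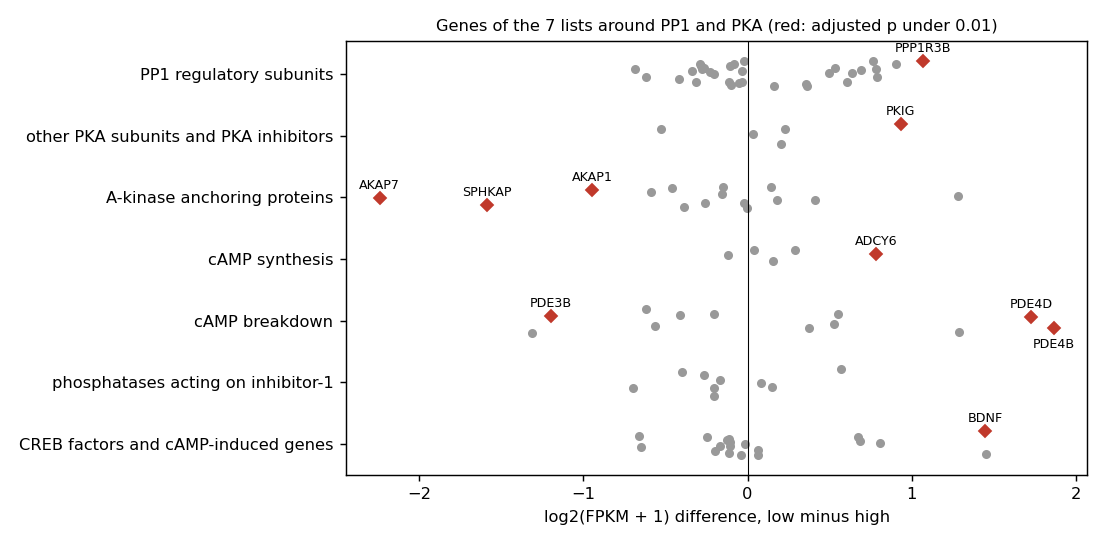
Log2(FPKM + 1) differences, EWSR1::FLI1 low minus high, of the 97 tested genes in 7 lists, with genes at an adjusted p under 0.01 as red diamonds and the others as grey points. The 3 called anchoring proteins lie at -2.24, -1.59 and -0.95, and the called phosphodiesterases at 1.86, 1.73 and -1.20.

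The calls differed in how firmly they held. Over 14 alternative settings, of which median-ratio scaling left the values almost unchanged, AKAP7 and BDNF were called in each. Their adjusted p-values (limma) were at most 0.00424 and 0.00854. PDE4B was lost only without replicate 2 of EWSR1::FLI1 high (adjusted p = 0.0102) and PDE4D only without replicate 3 of EWSR1::FLI1 high (adjusted p = 0.0114). PDE3B was lost in 3 settings, each leaving out an untreated library, with adjusted p-values up to 0.017. SPHKAP and PPP1R3B were lost in 5, PKIG and AKAP1 in 6 and ADCY6 in 8, each of them without any 1 of the untreated libraries and without replicate 3 of EWSR1::FLI1 low, with adjusted p-values of up to 0.0533. Without replicate 1 of EWSR1::FLI1 low, 10 list genes rose and 5 fell, and these held all 10 called before. The 5 gained were PHACTR2, AKAP12, PPP3CA, PPP3CC and NR4A2.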

How the data were processed

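RNA was taken from 6 A673/TR/shEF cultures, 3 untreated and 3 given doxycycline. According to the methods and labels, the authors prepared ScriptSeq v2 libraries after Ribo-Zero depletion, aligned the read pairs with STAR 2.5.0b (GRCh37) and obtained abundances with Cufflinks 2.2.1. The authors' deposited FPKM values, 1 per symbol and library, were used, and their median-ratio factor was 1.02 in every library. The authors' mean normalized count, a signal averaged over the 6 libraries, served to recover whole reads from FPKM (100% of values within 0.1 of a whole number). Reads on genes numbered 6980361 to 16658933 per library, and the floor of 3 reads covers counting error only. The fold changes and p-values of the authors (DESeq2 1.6.3) were not used. The annotation and the use of strand in counting are not given in the sources used here.

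Groups came from the labels. Genes with a mean of at least 0.5 FPKM (15504) were fitted with limma 3.58.1 in R 4.3.3 (lmFit, eBayes with trend) on log2(FPKM + 1), with no block, and p-values were adjusted by Benjamini-Hochberg over all genes tested. Calls were made at an adjusted p under 0.01. The code of the fit was checked on simulated data without library effects, which does not bear on how firm single calls are. Named genes were the 10 genes, PPP1R1C, PRKAR1B, PRKX, PKIA, PKIB and PKIG whatever their values, up to 4 called genes per list and direction with the largest differences, FLI1, EWSR1 and the 5 genes nearest to PPP1R1A. AKAP12, PHACTR2, PPP3CA, PPP3CC, NR4A2, PDE4A, PDE1B, GNAS and CREB1 and those in the closing section were named after their values were seen. The members and the lists were chosen with earlier results of these data known. Alternatives were voom on recovered reads, a pseudocount of 0.1, filters of 1 FPKM or none, other scalings, no trend, a replicate block and each library left out. Gene positions are from GENCODE on GRCh37 and promoter sequences from RefSeq.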

Additional observations from a re-analysis of the deposited data

How the results depend on the processing

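PPP1R1A was chosen for its fall in this comparison, so the sign of its log2 difference, negative under all 14 alternatives, is a description only. Median-ratio scaling divided every library by the same 1.02, and a change of filter, trend or block left the difference unchanged. The log2 difference was -4.71 with voom on recovered reads and -4.62 with a pseudocount of 0.1. It ranged from -4.25 to -3.76 when each library was left out. Of the list genes, 6 rose and 4 fell. Without a filter on low values the counts were 3 and 2, at an adjusted p under 0.05 they were 13 and 9, and leaving out each library gave 2 to 10 and 1 to 5. Of all genes, 700 rose and 522 fell. Without a filter the counts were 456 and 297, at an adjusted p under 0.05 they were 1530 and 1537, and leaving out each library gave 308 to 1527 and 157 to 807. With voom on recovered reads, 945 of all genes rose and 784 fell. More genes fell than rose at an adjusted p under 0.05, with quantile normalization (992 rose and 1000 fell) and without replicate 3 of EWSR1::FLI1 low, the deepest library (415 and 689), whereas more rose than fell in the other settings. With quantile normalization 5 list genes rose and 5 fell. Of the leave-outs, the highest counts came without replicate 1 of EWSR1::FLI1 low (1527 and 807). Same-numbered libraries deviated together only weakly, although each value was positive (r = 0.27, 0.09 and 0.12 across genes, against -0.29 to 0.19 for other pairs). This does not settle whether the numbers pair the samples, and the main fit used no block. With a replicate block, 916 of all genes rose and 786 fell, and 8 and 4 of the list genes, with PDE3A, NR4A2 and, among the 10 genes, PPP1R1B gained. The cause of these changes was not tested. The median shift of all genes was -0.05 to -0.09 under every scaling. The 2 reads of PPP1R1B in 1 treated library, and the 16 of PPP1R1A, limit the precision of their levels.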

Other observations

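Several list genes that were not called had a wide spread between EWSR1::FLI1 low libraries, with replicate 2 the highest. They were chosen after their values were seen. AKAP12, an anchoring protein of PKA and protein kinase C, was 59.8, 64.3 and 94.5 FPKM in EWSR1::FLI1 high and 76.8, 361 and 194 FPKM in EWSR1::FLI1 low (log2 difference 1.28, SE 0.48, adjusted p = 0.0925, limma). PPP1R15A, which brings PP1 to the translation factor eIF2 alpha after stress, was 18.4, 22.3 and 30.1 FPKM and then 21.0, 76.8 and 39.1 FPKM (adjusted p = 0.226). The groups of both genes overlapped. NR4A2, an orphan nuclear receptor induced by cAMP, was 0.432, 0.320 and 0.585 FPKM and then 1.59, 6.08 and 2.34 FPKM (adjusted p = 0.0168), and PDE3A was 0.639, 0.791 and 0.441 FPKM and then 1.95, 5.86 and 2.05 FPKM (adjusted p = 0.0208). Neither of these had overlapping groups. DUSP1, a phosphatase of MAP kinases, was 6.17, 7.38 and 9.44 FPKM and then 5.06, 28.3 and 13.3 FPKM (adjusted p = 0.36). PDE4B and PDE4D, which were called, were highest in the same library.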
